A study of Mus musculus with 24 samples.

Results

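Serine and folate one-carbon metabolism was followed through 9 genes, taken by symbol from the 55414 genes of the deposited count table. Shmt2, Mthfd2, Mthfd1l and Aldh1l2 encode mitochondrial enzymes, and Shmt1, Mthfd1, Phgdh, Psat1 and Psph encode cytosolic ones. The samples were conventional CD4+ T cells (Tconv CD4+, CD25-depleted; TE in the labels) isolated from the spleens of conplastic mice by magnetic beads. All mice shared the C57BL/6J nuclear genome and carried either the C57BL/6J mitochondrial genome (mtDNA B6, WT in the labels) or that of the NZB strain (mtDNA NZB). Cells were left resting (RES) or activated for several days with beads against CD3 and CD28 plus IL-2 (ACT), giving 4 groups of 6 libraries and 24 libraries in all. Animals were mainly young adult males, and the labels number the replicates without naming animals, so p-values measure the spread between these libraries.

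One-carbon metabolism moves single carbon units on tetrahydrofolate. Serine is the main donor: it is taken up, or made from the glycolytic intermediate 3-phosphoglycerate by Phgdh, Psat1 and Psph in turn. Serine hydroxymethyltransferase, Shmt2 in mitochondria and Shmt1 in the cytosol, splits serine into glycine and methylene-tetrahydrofolate. In mitochondria Mthfd2 and Mthfd1l oxidize that unit to formate, which leaves for the cytosol, where the trifunctional enzyme Mthfd1 takes it up for purine, thymidylate and methionine synthesis, and Aldh1l2 can burn the unit to carbon dioxide instead. Dividing T cells are known to draw on this route for nucleotides.

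Total counts after correction for unique molecular identifiers (UMIs) were between 2157475 and 6449395 in 22 libraries, 641467 in activated NZB replicate 1 and 51409 in resting NZB replicate 2. In that smallest library 1 count equals 16.9 CPM (counts scaled to a common library total with TMM factors), and it stood apart from its group. T cell markers (6 genes) summed to between 2996 and 5473 CPM in every library, and the 4 activation markers to between 69.8 and 289.9 CPM at rest against 462.8 to 990.3 CPM after activation. Resting libraries also held RNA of other cells: the 7 granulocyte and precursor markers summed to 281 to 11610 CPM at rest (highest in resting NZB replicate 6) and to 7.12 to 107.8 CPM after activation, the 5 myeloid markers to 457 to 2806 CPM and 10.8 to 109.3 CPM, and the 6 erythroid markers to 89 to 7185 CPM and 2.48 to 162.9 CPM. The 5 B cell markers were present in both states, at 233 to 1338 CPM at rest and 91.3 to 1273 CPM after activation. The 2 regulatory T cell (Treg) markers summed to 16.9 to 32 CPM at rest and 13 to 46 CPM after activation. On activation Foxp3 was called higher in NZB cells (log2 0.67, adjusted p = 0.048 by edgeR) and not in B6 cells (0.01). Ikzf2 was called lower in B6 cells (-0.88) and not called in NZB cells (-0.55). The 4 CD8 and NK markers summed to 43.8 to 155.2 CPM at rest and to 82 to 534.5 CPM after activation, and of the 3 tested Cd8a (log2 2.35 in B6 and 1.90 in NZB cells) and Cd8b1 (1.79 and 1.44) were called higher on activation and Klrb1c lower. The part of these other cells in the differences below was not tested, and in bulk RNA fewer cells of a type and less RNA per cell cannot be told apart.

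Activation raised every mitochondrial member that could be measured, in both haplotypes. Of the 4 mitochondrial members 3 passed the filter on low counts, and all 3 were called higher in B6 cells and all 3 in NZB cells (edgeR quasi-likelihood test, adjusted p of at most 0.05). Among all 10566 genes tested, 22.4% were called higher in B6 cells and 25.2% in NZB cells. The median log2 difference of the 3 genes was 0.77 in B6 and 1.05 in NZB cells, beside -0.03 and -0.06 over all genes tested.

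Shmt2 (ENSMUSG00000025403, chr10:127352266-127358323, minus strand, GRCm39) feeds serine carbon into the mitochondrial folate pool. Its level in resting B6 libraries was 73.5 CPM at the lowest, 98 at the median and 122 at the highest, and in activated B6 libraries 124.6, 161.4 and 212.4 CPM. In NZB libraries it went from 79.4, 88.3 and 101.6 CPM at rest to 146.8, 178 and 209.9 CPM. Resting and activated libraries did not overlap in either haplotype. The rise was 1.68-fold in B6 (log2 0.75, SE 0.13, adjusted p = 3.68e-05 by edgeR) and 2.08-fold in NZB cells (log2 1.05, SE 0.14, adjusted p = 6e-07 by edgeR).

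Mthfd2 (ENSMUSG00000005667, chr6:83282673-83302890, minus strand) carries out the mitochondrial dehydrogenase and cyclohydrolase steps. Resting B6 libraries were close together, at 54.3 CPM at the lowest, 56.1 at the median and 59 at the highest, and activated B6 libraries stood at 103.1, 126.1 and 150.7 CPM. Resting NZB libraries spread more widely, with 50.4, 54.4, 60.4, 67.8, 98 and 105.9 CPM in replicates 1, 3, 4, 2, 6 and 5. The upper pair of these libraries, replicates 5 and 6, also had the highest summed activation markers at rest, 163.1 and 289.9 CPM, against 69.8 to 113.5 CPM in the other 4. Resting B6 replicates 1, 5 and 6 had 161.9, 162.9 and 152.7 CPM of these markers, with Mthfd2 at only 58.4, 56.2 and 59 CPM. Activated NZB libraries ran from 105.1 through 150.7 to 184.9 CPM of Mthfd2, so that 1 resting NZB library, replicate 5, overlapped them. The rise was 2.27-fold in B6 (log2 1.18, SE 0.16, adjusted p = 2.15e-06) and 2.03-fold in NZB cells (log2 1.02, SE 0.17, adjusted p = 2.15e-05).

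Mthfd1l (ENSMUSG00000040675, chr10:3922870-4117081, plus strand) makes formate from mitochondrial formyl-tetrahydrofolate. It went from 27.3, 30.4 and 36.2 CPM (lowest, median and highest) in resting B6 libraries to 44.3, 53 and 62.7 CPM in activated ones, and from 16.9, 21.2 and 26.2 CPM to 44, 53.7 and 70.7 CPM in NZB libraries. Groups did not overlap in either haplotype. The rise was 1.71-fold in B6 (log2 0.77, SE 0.13, adjusted p = 1.91e-05) and 2.53-fold in NZB cells (log2 1.34, SE 0.14, adjusted p = 1.81e-08).

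Aldh1l2 (ENSMUSG00000020256, chr10:83323314-83370005, minus strand), the mitochondrial formyl-tetrahydrofolate dehydrogenase, had 2 counts over the 24 libraries, 1 in each of resting B6 replicates 5 and 6, and was not tested. A count of 0 allows up to 3 counts, which is 0.440 CPM in the deepest library and 50.8 CPM in the smallest, by counting error alone. The last 1000 bases of the gene, the stretch this 3′-end method reads, lie entirely over exons of Nopchap1 on the opposite strand, and Nopchap1 itself was listed at 0 to 0.783 CPM. Reads from the overlap could be lost or assigned to either gene, depending on how strand was handled, so the low count is not a measure of the transcript alone.

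**Figure D1:**
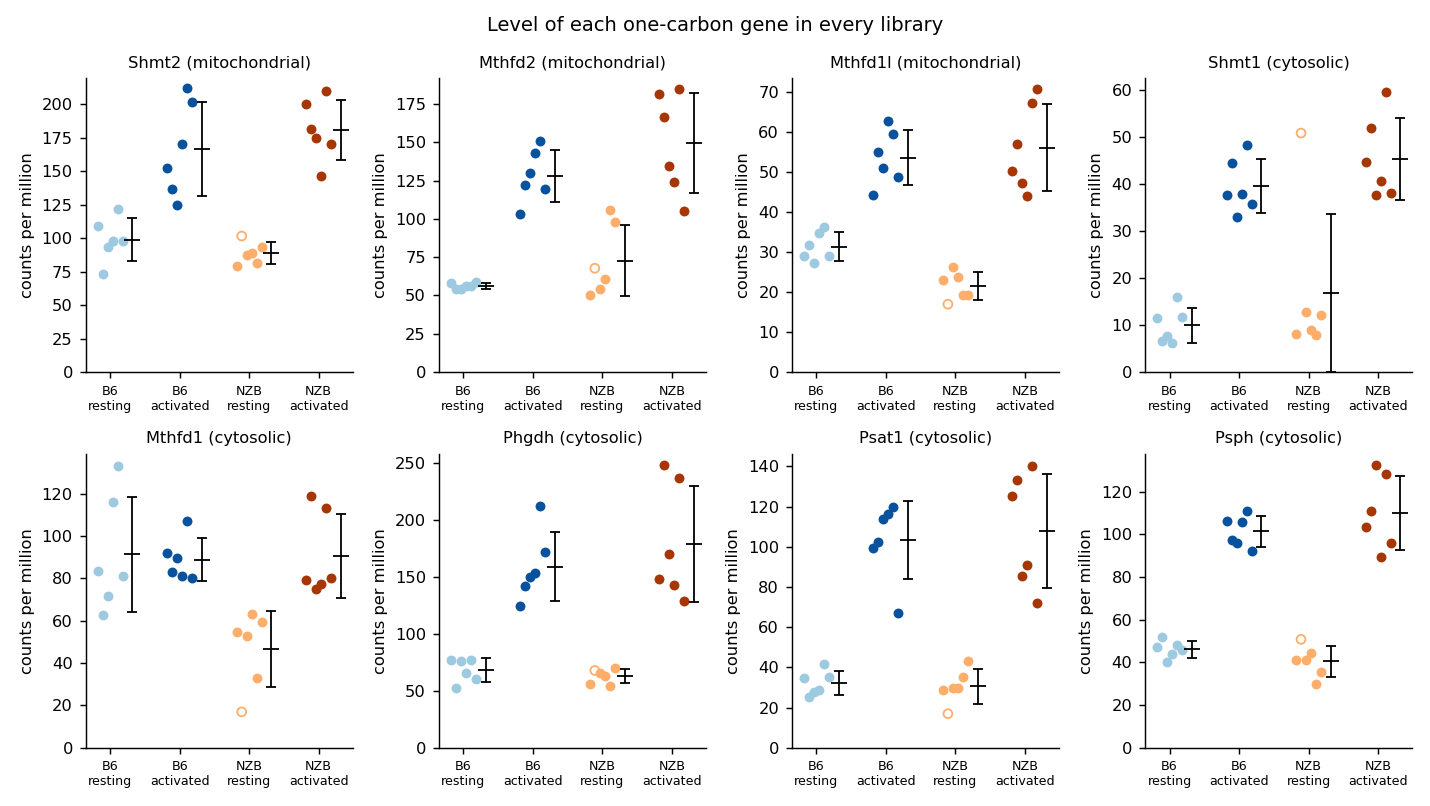
CPM (vertical axis, from 0, scaled per gene) of the 8 members that were tested, in every library of the 4 groups (6 points each), with the group mean and SD as a bar to the right. The open circle is resting NZB replicate 2, the library of 51409 counts; apart from Mthfd1 in B6 cells, the activated points lie above most or all of the resting points of their haplotype.

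The cytosolic members gave the extremes of the set. Shmt1 rose more than any other member in both haplotypes, and Mthfd1 rose in NZB cells and was not called in B6 cells. Of the 5 cytosolic members, all of which were tested, 4 were called higher in B6 and 5 in NZB cells. Over all genes tested, 22.4% and 25.2% were called higher. The cytosolic median log2 differences were 1.22 and 1.54, beside -0.03 and -0.06 over all genes tested.

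Shmt1 (ENSMUSG00000020534, chr11:60661185-60708167, minus strand), the cytosolic counterpart of Shmt2, had the lowest group median of the tested members at rest. In resting B6 libraries it was at 6.27 CPM at the lowest, 9.62 at the median and 15.9 at the highest, and in activated ones at 33, 37.8 and 48.4 CPM. In resting NZB libraries it was at 7.79 to 12.8 CPM in 5 libraries and at 50.8 CPM, from 3 counts, in replicate 2. Activated NZB libraries had 37.6, 42.5 and 59.5 CPM, above every resting library but that one. The rise was 3.86-fold in B6 (log2 1.95, SE 0.21, adjusted p = 6.67e-08) and 4.37-fold in NZB cells (log2 2.13, SE 0.23, adjusted p = 5.17e-08). Of the last 1000 bases of its exons, 184 overlap Smcr8 on the opposite strand, which was at 24.4 to 72 CPM with its highest group range at rest in NZB cells (41.4 to 72 CPM). Shmt2 overlaps Ndufa4l2 (at most 0.654 CPM) in the same way over 31 bases, and Mthfd1l overlaps Gm67105, which was not counted, over 150 bases.

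Mthfd1 (ENSMUSG00000021048, chr12:76301984-76366588, plus strand) handles formate, methenyl and methylene units in the cytosol. In B6 cells resting libraries were at 62.6, 71.9, 81.2, 83.3, 115.9 and 132.9 CPM and activated libraries between 80 and 107 CPM with a median of 86.2 CPM. These groups overlapped, with the resting ones spread beyond the activated ones on both sides, and the difference was -0.04 on the log2 scale (SE 0.18, adjusted p = 0.857), with a 95% interval from -0.39 to 0.30. In NZB cells resting libraries were at 16.9, 33, 52.7, 54.7, 59.4 and 63.2 CPM and activated libraries at 74.9 to 118.7 CPM with a median of 79.7 CPM. Here the groups did not overlap, and the rise was 1.75-fold (log2 0.81, SE 0.19, adjusted p = 0.000793). With a replicate block by the number in the sample description, in which only the 4 NZB pairs of libraries that share a number inform the difference, it was 0.44 (adjusted p = 0.0267). Without resting B6 replicate 4 or 5 the B6 value was 0.03 or 0.10, and neither was called.

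The 3 enzymes of serine synthesis rose together. Phgdh (ENSMUSG00000053398, chr3:98220484-98255047, minus strand), which commits 3-phosphoglycerate to serine, went from 52.6, 70.7 and 76.9 CPM to 124, 151.5 and 211.6 CPM in B6 cells, 2.33-fold (log2 1.22, SE 0.16, adjusted p = 6.24e-07). In NZB cells it went from 54.5, 64.1 and 69.9 CPM to 128.6, 159 and 247.6 CPM, 2.90-fold (log2 1.54, SE 0.17, adjusted p = 3.7e-08). Neither haplotype showed overlap between resting and activated libraries.

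Psat1 (ENSMUSG00000024640, chr19:15882039-15924701, minus strand), the transaminase of the second step, went from 25.5, 31.8 and 41.7 CPM to 67, 108.3 and 119.8 CPM in B6 cells, 3.19-fold (log2 1.67, SE 0.17, adjusted p = 2.55e-08). In NZB cells it went from 16.9, 29.8 and 43.4 CPM to 72.1, 108.1 and 140 CPM, 3.25-fold (log2 1.70, SE 0.18, adjusted p = 4.19e-08). Again no activated library fell among the resting ones.

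Psph (ENSMUSG00000029446, chr5:129841925-129864513, minus strand), the phosphatase that releases serine, had the smallest errors of the set. It went from 40.2, 46.6 and 52 CPM to 92.3, 101.8 and 111.1 CPM in B6 cells, 2.20-fold (log2 1.13, SE 0.11, adjusted p = 6.84e-09), and from 29.8, 41 and 50.8 CPM to 89.3, 107.2 and 132.5 CPM in NZB cells, 2.84-fold (log2 1.51, SE 0.12, adjusted p = 1.7e-10). Resting and activated libraries were apart in both haplotypes.

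**Figure D2:**
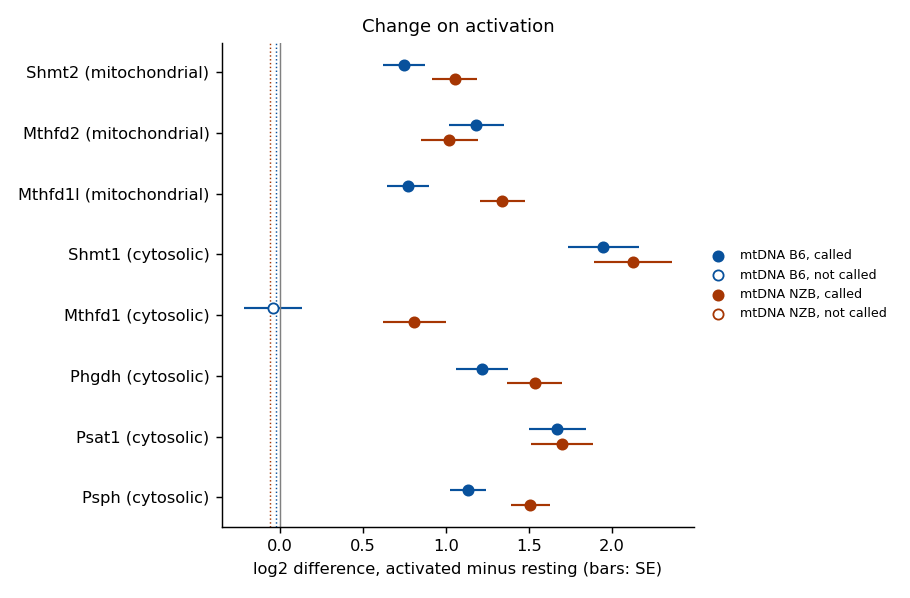
Log2 difference of activated minus resting libraries (horizontal axis) for the 8 tested members in mtDNA B6 (blue) and mtDNA NZB (brown) cells, with bars of 1 SE; filled points were called at an adjusted p of at most 0.05 and dotted lines give the median over all genes tested. Mthfd1 in B6 cells, at -0.04, is the only open point, and Shmt1 lies farthest to the right in both haplotypes.

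The place of these changes among all genes tested describes their size. In B6 cells 98.2% of genes had a lower log2 difference than Shmt1, 97.2% a lower one than Psat1, 88.7% a lower one than Shmt2 and 48.9% a lower one than Mthfd1. In NZB cells the members lay between 86.6% (Mthfd1) and 97.5% (Shmt1). At rest the 9 genes together took 0.0303% to 0.0548% of a library's counts, and after activation 0.0784% to 0.110%. Resting and activated libraries were apart for 7 of 8 members in B6 and 6 of 8 in NZB cells (Mthfd2 and Shmt1 overlapped). Over all genes tested, libraries were apart with the activated ones higher for 15.4% of genes in B6 and 11.9% in NZB cells.

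Sequencing depth per UMI divided the libraries into 3 sets that were unevenly spread over the groups, with 5 of 6 activated B6 libraries and no resting B6 library in the first. Within sets, all 8 members were higher after activation in NZB cells in each of the 3 sets, by 0.80 to 2.43 on the log2 scale. The first and second sets each held only 1 resting NZB library against 2 activated ones. The third held 4 resting libraries, with the smallest library among them, against 2 activated ones. The share of all genes that were higher within sets was not worked out. In B6 cells the second set alone held both states, 4 resting libraries and 1 activated, and all 8 members were higher there, by 0.40 (Mthfd1) to 2.54.

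The mitochondrial and cytosolic partners did not shift in parallel. The log2 ratio of Shmt2 to Shmt1 (0.5 CPM added to each) was 2.90 to 3.86 in resting B6 libraries, with a mean of 3.31 ± 0.35 (SD, n = 6), and 1.62 to 2.49 in activated ones, with a mean of 2.05 ± 0.29 (SD, n = 6). In NZB libraries it was 2.73 to 3.31 at rest in the 5 deeper libraries (0.99 in replicate 2) and 1.80 to 2.20 after activation. Shmt2 stayed the more abundant of the pair in every library, by a smaller margin after activation. The log2 ratio of Mthfd1l to Mthfd1 moved the other way, from a mean of -1.49 ± 0.31 (SD, n = 6) at rest to -0.73 ± 0.23 (SD, n = 6) after activation in B6 cells and from -0.997 ± 0.57 (SD, n = 6) to -0.68 ± 0.28 (SD, n = 6) in NZB cells. Resting NZB replicate 2, at 0 from 1 count of each gene, raised that resting mean, which was -1.20 ± 0.33 (SD, n = 5) without it, and the shift in NZB cells was 0.31 with all libraries, 0.51 without that one and 0.19 without resting NZB replicate 6. In NZB cells the 2 states overlapped for this ratio, and they overlapped slightly in B6 cells too, where resting libraries reached -0.97 and activated ones began at -1.04. These ratios are a description with no test. Counts of 3′ ends do not depend on transcript length, but a ratio between 2 genes also carries how well each end is captured.

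**Figure D3:**
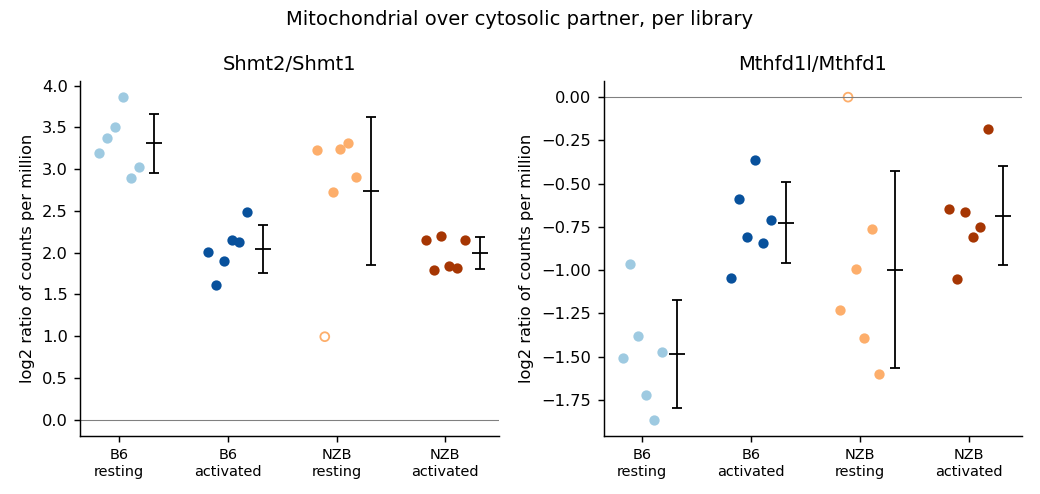
Log2 ratio of CPM (0.5 added) of the mitochondrial over the cytosolic partner in each library, Shmt2 over Shmt1 on the left and Mthfd1l over Mthfd1 on the right, with group mean and SD. The first ratio is lower and the second higher on average after activation; the open circle is resting NZB replicate 2.

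The second question was whether the mtDNA haplotypes differed in these genes. At rest 1 member was called, Mthfd1, lower in NZB than in B6 cells, where 0.861% of all genes tested were called lower and 1.90% higher. None of the 3 tested mitochondrial members was called.

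Mthfd1 in resting NZB libraries had the values given above, 5 of 6 of them at or below 59.4 CPM, against 62.6 to 132.9 CPM in resting B6 libraries. The highest NZB library, replicate 4 at 63.2 CPM, overlapped the lowest B6 library, replicate 2 at 62.6 CPM. The level was 1.76-fold lower in NZB cells (log2 -0.82, SE 0.19, adjusted p = 0.0298). The difference within library sets was -0.56 (4 B6 libraries against 1 NZB library) and -1.43 (2 against 4). The call was lost, with the direction kept, when resting NZB replicate 5 (-0.70, adjusted p = 0.135) or resting B6 replicate 1, 3, 4 or 5 was left out (-0.84, -0.90, -0.74 and -0.68, adjusted p = 0.0706, 0.0588, 0.0793 and 0.075). It was also lost with the library set as a term (-0.81, adjusted p = 0.0957), with the groups compared alone (-0.82, adjusted p = 0.186) and in the second count table (-0.83, adjusted p = 0.0667). A replicate block by title number ended it as well (-0.79, adjusted p = 0.0598). That block joins B6 and NZB libraries of the same number, which come from different mice. Resting B6 replicate 5, highest in Mthfd1, had 4037 CPM of granulocyte and precursor markers and 3641 CPM of T cell markers, the lowest of its group for the latter. Resting B6 replicate 4, next in Mthfd1, had 791 CPM of those granulocyte markers, and resting NZB replicate 6, with the most at 11610 CPM, had 59.4 CPM of Mthfd1. Erythroid markers stood at 2000 CPM in resting B6 replicate 4, 1181 CPM in resting B6 replicate 5 and 3632 CPM in resting NZB replicate 6. Myeloid markers stood at 861, 2633 and 2806 CPM in these libraries. Group medians at rest were 2198 CPM in B6 and 488 CPM in NZB libraries for granulocyte and precursor markers. For myeloid markers they were 1472 and 829 CPM, and for erythroid markers 1360 and 237 CPM. No marker of these types was called between haplotypes at rest. The part of these other cells in the Mthfd1 difference was not tested.

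Mthfd1l, the mitochondrial formate enzyme, was lower in all 6 resting NZB libraries (16.9 to 26.2 CPM) than in any resting B6 library (27.3 to 36.2 CPM). It was the only tested member whose resting haplotypes did not overlap, and 0.738% of all genes tested were apart in that direction. The difference of -0.49 on the log2 scale (SE 0.14) missed the threshold, with an adjusted p of 0.0514. It passed with median-of-ratios scaling (-0.51, adjusted p = 0.0476) and without activated NZB replicate 6 (adjusted p = 0.0462), resting NZB replicate 2 (adjusted p = 0.0451) or resting NZB replicate 3 (adjusted p = 0.0329). It moved further from the threshold without resting NZB replicate 5 (-0.45, adjusted p = 0.216), with the groups compared alone (-0.49, adjusted p = 0.186), in the second table (-0.47, adjusted p = 0.128) and with the library set as a term (-0.52, adjusted p = 0.106). The lowest NZB value is 1 count in the library of 51409 counts.

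The other members were not called at rest. Mthfd2 was at 0.38 (NZB minus B6, SE 0.17, adjusted p = 0.208), and at 0.22 without resting NZB replicate 5 (adjusted p = 0.662). Psph was at -0.25 (SE 0.12, adjusted p = 0.211). Shmt2 was at -0.19, Phgdh at -0.14, Psat1 at 0.02 and Shmt1 at 0.02, with 95% intervals of -0.46 to 0.07, -0.46 to 0.18, -0.34 to 0.39 and -0.47 to 0.50.

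After activation no member and no gene at all was called between haplotypes by edgeR (0% of genes tested, with 327 at an unadjusted p under 0.05; 0 by DESeq2). All 8 differences were positive and small in the main fit. They ran from 0.04 for Mthfd1 to 0.21 for Mthfd2 on the log2 scale, beside a median of 0.01 over all genes. Those of Mthfd1, Mthfd1l and Psat1 turned negative without some single libraries, such as activated NZB replicate 2 for Mthfd1 (-0.06). The 95% interval for Mthfd2 ran from -0.10 to 0.53 and that for Mthfd1 from -0.31 to 0.38, so that a difference of the size seen for Mthfd1 at rest lay outside the interval. Activated NZB libraries varied among themselves. Replicates 1, 2 and 5 had 181.2, 166.7 and 184.9 CPM of Mthfd2 and replicates 3, 4 and 6 had 134.8, 124.2 and 105.1 CPM. The former libraries had 951.9, 990.3 and 861.7 CPM of activation markers and 96.3, 91.3 and 335.7 CPM of B cell markers, the latter 621.3, 625.2 and 462.8 CPM and 802.3, 1008 and 1273 CPM. The CD8 and NK markers summed to 82, 87.7 and 125.1 CPM in the former and 357.3, 207 and 534.5 CPM in the latter. The 2 Treg markers summed to 38.8, 46 and 22.6 CPM in the former and 14.7, 22.2 and 20.4 CPM in the latter. The part of these cells in the spread was not tested. Psat1 split these libraries in the same places, at 125.1, 133.1 and 140 CPM against 85.7, 91.1 and 72.1 CPM. Shmt2 and Shmt1 also split there, whereas Mthfd1l, Mthfd1, Phgdh and Psph did not.

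The response to activation was then compared between haplotypes through the interaction term. No member and no gene was called by edgeR (0% of genes tested, with 1512 at an unadjusted p under 0.05; 1 by DESeq2). Mthfd1 rose by 0.85 more in NZB cells (SE 0.26, adjusted p = 0.207) and Mthfd1l by 0.57 more (SE 0.19, adjusted p = 0.214), on the log2 scale. Over the alternative settings the Mthfd1 value ran from 0.47 to 0.94 and was called in none. In the main fit the other members lay between -0.16 (Mthfd2) and 0.37 (Psph). The passing of Mthfd1 in NZB and not in B6 cells was therefore not shown to be a difference of response.

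**Figure D4:**
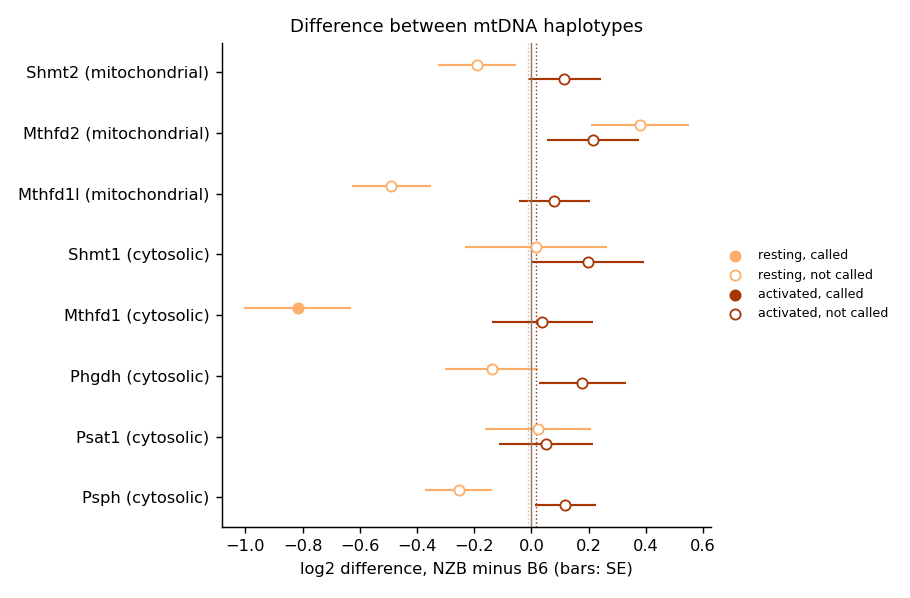
Log2 difference of NZB minus B6 cells (horizontal axis) for the 8 tested members at rest (light orange) and after activation (brown), with bars of 1 SE; filled points were called. Mthfd1 at rest is the only filled point, Mthfd1l at rest lies at -0.49, and the activated values sit between 0.04 and 0.21.

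The genes around the members moved in both directions. The counts below stand beside 22.4% of all genes tested called higher and 24.5% called lower on activation in B6 cells, and 25.2% and 28.4% in NZB cells, and several are near those shares. Among genes that use methylene-tetrahydrofolate, 2 of 6 tested genes were called higher in B6 and 4 in NZB cells, with 1 lower in NZB cells. Tyms, which makes thymidylate, rose from a median of 25 to 111.3 CPM in B6 cells, 3.51-fold (log2 1.81, SE 0.29, adjusted p = 1.31e-05), and from 14.9 to 124.3 CPM in NZB cells, 7.25-fold (log2 2.86, SE 0.33, adjusted p = 1e-07). Dtymk, the thymidylate kinase, rose 1.56-fold and 2.55-fold.

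Folate transport and retention showed 0 higher and 2 lower of 5 tested genes in B6 cells and 2 higher and 1 lower in NZB cells. Fpgs, which adds the glutamate tail that keeps folate in the cell, fell, with log2 differences of -1.25 and -0.92 (adjusted p = 1.31e-05 and 0.000654). Slc25a32, the mitochondrial folate carrier, was low in both states (medians of 4.06 to 5.03 CPM) at -0.13 and -0.06, not called. Of the paralogs of the members, Mthfd2l, the other mitochondrial dehydrogenase, moved against Mthfd2, from a median of 9.83 to 3.60 CPM in B6 cells (log2 -1.54, SE 0.23, adjusted p = 6.36e-06) and from 7.39 to 4.45 CPM in NZB cells (log2 -0.78, SE 0.25, adjusted p = 0.0101). The NZB call was lost in the second count table (-0.76, adjusted p = 0.0526) and with the replicate block by description number (-0.86, adjusted p = 0.0528). Aldh1l1, the cytosolic counterpart of Aldh1l2, had 108 counts in all and was not tested. In this list of paralogs 0 of 3 tested genes were higher and 1 lower in B6 cells, and 1 was higher and 1 lower in NZB cells.

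Mitochondrial serine import and glycine cleavage was divided, with 2 higher and 3 lower of 6 tested genes in B6 and 3 and 3 in NZB cells. Sfxn1, a mitochondrial serine transporter, rose by 0.46 (adjusted p = 0.00708) and 1.10 (adjusted p = 9.06e-07) on the log2 scale, the former not called with the library set as a term (0.43, adjusted p = 0.0687). Sfxn2, of the same family, fell, at -0.78 and -0.62 (adjusted p = 0.0021 and 0.016), and neither passed in the second table (adjusted p = 0.0596 and 0.0519). Slc25a38, the mitochondrial glycine carrier, fell, at -1.11 and -1.25 (adjusted p = 3.04e-06 and 8.99e-07). Dld, the dehydrogenase shared by the glycine cleavage system and pyruvate dehydrogenase, rose by 0.76 and 0.54 (adjusted p = 0.00175 and 0.0261), the latter lost without activated NZB replicate 2 (0.51, adjusted p = 0.0526) or 6 (0.47, adjusted p = 0.0651) or resting NZB replicate 4 (0.52, adjusted p = 0.053), and with that block (0.51, adjusted p = 0.13). Gldc and Amt, which carry out cleavage, had 24 and 6 counts and were not tested. At rest Sfxn1 was called lower in NZB than in B6 cells (log2 -0.56, adjusted p = 0.0392). That call was lost with the library set as a term (-0.57, adjusted p = 0.118), in the second table (-0.57, adjusted p = 0.0681) and without resting NZB replicate 5 (-0.48, adjusted p = 0.192), among other settings.

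Among genes of serine and glycine uptake and breakdown 1 of 6 tested was higher and 3 lower in B6 cells, and 1 higher and 2 lower in NZB cells. Gcat, a mitochondrial enzyme of threonine breakdown to glycine, rose 3.42-fold and 4.70-fold (adjusted p = 3.58e-07 and 4.05e-08). Its symbol stands for a pair of gene identifiers in the table, of which the older was used. Slc38a2, a carrier of small neutral amino acids, fell in both haplotypes (log2 -1.32 and -2.19, adjusted p = 8.59e-05 and 1.13e-07). Slc6a9, the glycine transporter, fell as well (log2 -2.27 and -2.10, adjusted p = 0.00178 and 0.0107), with the NZB call lost without resting NZB replicate 6 (-0.95, adjusted p = 0.197), the library richest in granulocyte and precursor RNA. At rest Slc38a2 was called higher in NZB than in B6 cells (log2 0.89, adjusted p = 0.046). That call was lost by DESeq2 (0.85, adjusted p = 0.0584), in the second table (0.90, adjusted p = 0.0876) and without resting NZB replicate 5 (0.44, adjusted p = 0.253), among other settings.

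In the methionine cycle and transsulfuration 4 of 8 tested genes were higher in B6 and 3 in NZB cells, and none was lower. Ahcy, which clears S-adenosylhomocysteine, rose 1.91-fold and 2.53-fold. Its relative Ahcyl2 rose 1.78-fold and 1.65-fold, the latter not called with the block by description number (0.55, adjusted p = 0.0691). Mtap, which salvages methylthioadenosine, rose 1.55-fold and 1.40-fold, the latter lost without activated NZB replicate 2 (0.40, adjusted p = 0.0529) or resting NZB replicate 4 (0.41, adjusted p = 0.0541) or with the same block (0.51, adjusted p = 0.0735).

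None of the transcription factors known to act on the pathway was called higher on activation. Of 6 tested, 0 were higher and 4 lower in B6 cells, and 0 higher and 3 lower in NZB cells. Atf4, an activator of serine synthesis genes under amino acid stress, fell, with log2 differences of -1.89 and -1.99 (adjusted p = 1.43e-10 and 7.04e-11). Ddit3, which also has a pair of identifiers, was at -2.03 and -2.31, and Atf3, a stress-induced factor, at -5.53 and -5.04, all called lower. At rest 1 of the 6 was called higher in NZB than in B6 cells, beside 1.90% of all genes tested. All these values were steady levels of RNA and say nothing of protein.

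**Figure D5:**
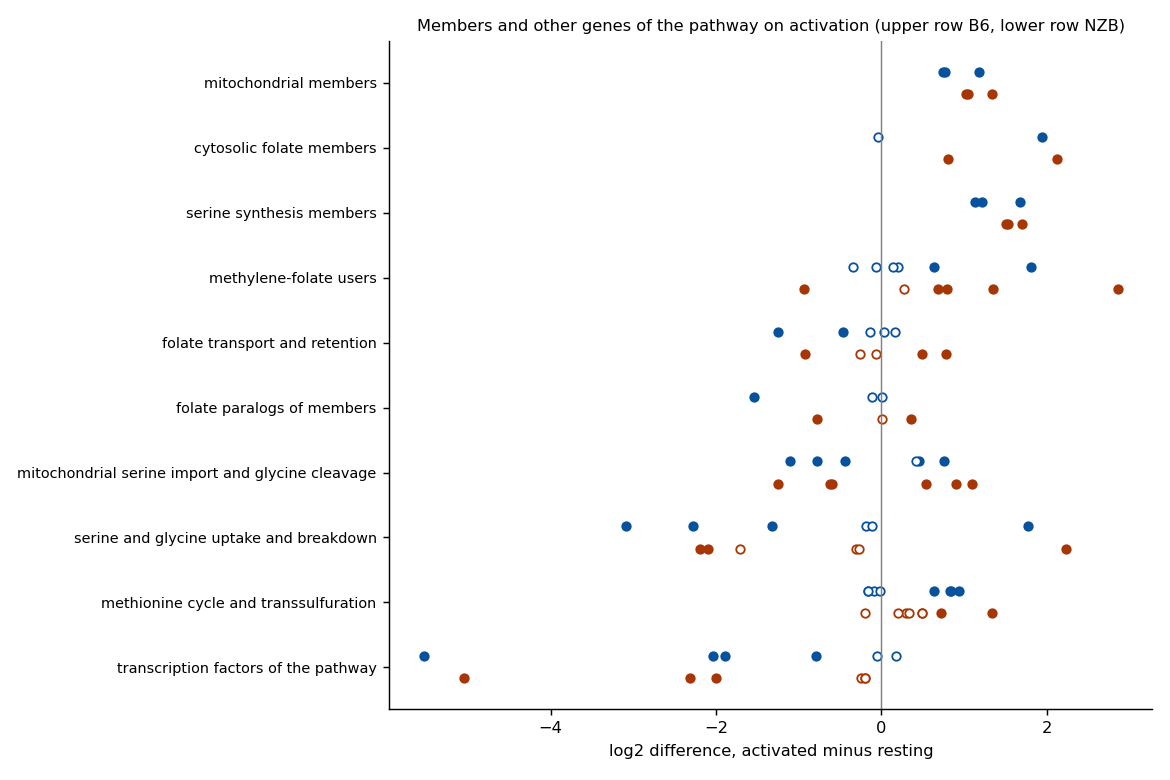
Log2 difference on activation (horizontal axis) of every tested gene in the 3 member groups and the 7 pathway lists (rows), with mtDNA B6 cells (blue) in the upper and mtDNA NZB cells (brown) in the lower line of each row; filled points were called. The members sit to the right of 0 apart from Mthfd1 in B6 cells, whereas the other lists hold points on both sides and the transcription factors reach -5.53.

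With group means removed, the libraries above 500000 counts (n = 23) showed which genes followed the members beyond the effect of group. For Mthfd2 the nearest of 7748 genes were Tnfrsf4 (Pearson r = 0.93), Hnrnpab (0.93), Csrp1 (0.91), Anp32e (0.91) and Prpf38a (0.91). Tnfrsf4 encodes the costimulatory receptor OX40 and was 1 of the 4 activation markers. For Shmt2 they were Srm (0.85), Crip2 (0.82), Pola2 (0.80), Prmt5 (0.79) and Gmppb (0.78). Among the 28 pairs of members r ran from -0.16 to 0.70 with a median of 0.35, highest for Mthfd2 with Psat1 (0.70), while Mthfd2 with Mthfd1l, its successor in the mitochondrial route, gave -0.16. These values describe libraries that share depth, set and cell makeup, and carry no p.

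Since 7 members rose in both haplotypes, the promoters of all 9 members were searched for short motifs, from 250 bases before to 50 after the start of the canonical transcript in GRCm39. The E-box letters CACGTG, bound by Myc and related factors and the same on both strands, stood in 1 of 9 members, which was not among those 7, and in 7.85% of 21627 protein-coding promoters of the same length. The core of the amino acid response element, TGATGNAA on either strand, stood in 0 of 9 and in 3.85% of promoters. The single match is shown with 10 bases on each side and the motif in capitals, because it belongs to the member that was barely counted (chr10:83370037-83370062, minus strand, read along the gene, the motif starting 47 bases before the transcript start).
Aldh1l2: tgcaccaggtCACGTGtgcttagggg
A match is no proof of a site, and its lack says only that these letters were not in this window.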

How the data were processed

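Bulk MARS-seq, which reads mRNA 3′ ends with UMIs, was applied to 24 libraries of mouse Tconv CD4+ cells. The authors trimmed reads with cutadapt, aligned them to 3′ regions of GRCm39 with STAR, counted with HTSeq and removed UMI duplicates; the deposited counts are whole numbers per gene, not normalized. The labels and the study's methods differ on RNA input and kit. A second deposited table of larger counts served as an alternative, and 1 of its columns matched no sample and was not used. UMI counts limit the precision of low genes, and total counts per library are given in the text.

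From the counts, edgeR 4.0.16 (R 4.3.3) was fitted to all 4 groups with TMM scaling, filterByExpr and the quasi-likelihood test. P-values were adjusted after Benjamini and Hochberg over 10566 genes, and calls made at 0.05. Levels are TMM-scaled CPM. Intervals are the estimate ± 1.96 SE. Groups came from the labels. On simulated data of activation in B6 cells with 10566 genes, 13 of 100 genes changed by log2 0.5 and 69 of 100 changed by log2 1 were recovered, with 8 false calls. No other gene was changed there, whereas 46.9% of genes were called in the real comparison, so these rates do not carry over to it. No changes were simulated for the other comparisons. Alternatives were DESeq2 1.42.0 with the study's settings, other scaling and filters, the second table, library set and replicate blocks, and libraries left out. Named genes were all 9 members, per pathway list the up to 3 with the largest B6 activation change among those called in both haplotypes, and Tyms, Slc25a32, Sfxn1, Mthfd2l and Aldh1l1 (a further gene of the rule is not reported here); likeness took the 5 highest r among genes with a mean of at least 10 CPM. Members and lists were chosen with earlier results of these data known. Positions are from GENCODE on GRCm39; all 111 listed symbols matched. Replicates differed by more than sampling noise, so each library counted once.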

Additional observations from a re-analysis of the deposited data

Results flagged for a closer look

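Shmt1 in resting NZB replicate 2 stood at 50.8 CPM, far from the other libraries of its group, the nearest of which was at 12.8 CPM. The value rests on 3 counts in the library of 51409. It was the only 1 of 32 combinations of member and group in which a single library lay that far from the rest, where chance gives about 1 in 20.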

How the results depend on the processing

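Of 560 activation values of the 8 tested members under 35 alternative settings, 555 kept their direction and their side of the threshold; the exceptions were Mthfd1 in B6 cells without resting B6 replicate 4 or 5, and Shmt2 and Mthfd1l in B6 and Mthfd1 in NZB cells once a log2 difference of at least 1 was also asked, which left 1 mitochondrial member called in B6 cells. That fold left 746 genes higher and 1122 lower in B6 cells, 1000 and 1474 in NZB cells, and 71 and 36 between haplotypes at rest, where it left 0 cytosolic members. The haplotype difference at rest depended on the settings. Genes higher and lower in NZB cells were 128 and 52 by DESeq2, 0 and 1 with the library set as a term, 0 and 0 with the groups compared alone, and 30 and 13 in the second table; lower genes were 420 over the 21 libraries an earlier analysis kept and 444 without resting NZB replicates 2 and 6, a setting chosen after seeing the data. Leaving out 1 library in turn gave 0 to 447 higher and 0 to 369 lower genes, 0 to 1 cytosolic members lower and 0 to 1 mitochondrial members lower; Mthfd1 stayed between -0.90 and -0.68 and Mthfd1l between -0.55 and -0.44. Cytosolic members lower numbered 0 in the second table, with the set term, with the groups alone and with the title block, and mitochondrial members lower 1 with median-of-ratios scaling. Between activated haplotypes 1 gene was lower without resting NZB replicates 2 and 6 (0 to 1 leaving out 1 library). For the difference of responses 95 genes were higher and 18 lower over 21 libraries, 1 higher by DESeq2, and 0 to 1 leaving out 1 library. With 5 CPM added, the Shmt2 to Shmt1 log2 ratio fell by 0.89 on activation in B6 cells, beside 1.26 with 0.5 added.

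The labels do not say whether a number marks libraries from the same animals. The study divided isolated cells into resting and activated ones, and 9 description numbers recur in both states of a haplotype, so pairing could not be settled. Deviations of same-numbered resting and activated libraries correlated at -0.16 to 0.25 (9 pairs by description, 3 of them over 0.1) and at -0.19 to 0.25 (12 pairs by title, 4 over 0.1). With a replicate block by title number, 39 genes were higher and 33 lower at rest and Mthfd1 was not called (-0.79, adjusted p = 0.0598). Because that block joins B6 and NZB libraries of different mice, its values at rest are no check on pairing. With a replicate block by description number, which allows no haplotype comparison, the activation calls of the members held (Mthfd1 in NZB cells 0.44, adjusted p = 0.0267) and the cytosolic median of the difference of responses was -0.029, with Shmt1, Phgdh and Psat1 at -0.029, -0.048 and -0.115. It ended the NZB activation calls of Mthfd2l (-0.86, adjusted p = 0.0528), Dld (0.51, adjusted p = 0.13), Ahcyl2 (0.55, adjusted p = 0.0691) and Mtap (0.51, adjusted p = 0.0735). The title block gave Psat1 -0.015 for the difference of responses.

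In NZB cells Dld and Sfxn2 were not called by DESeq2 (adjusted p = 0.0637 and 0.067) or in the second table. Dld was lost over 21 libraries (0.44, adjusted p = 0.119), Sfxn2 with the groups compared alone (-0.63, adjusted p = 0.0622) and Slc6a9 over 21 libraries (-1.18, adjusted p = 0.169). Mtap was not called in the second table (adjusted p = 0.0695), and in B6 cells Dld was lost with the set term (0.62, adjusted p = 0.0553). Other changes of sign were in values that were not called in any of these settings. Shmt1 at rest was -0.012 with no filter, -0.048 with the set term, -0.121 over 21 libraries and -0.156 without resting NZB replicates 2 and 6 (-0.078 to 0.226 leaving out 1 library). Psat1 at rest was -0.005 with no filter and with the set term, -0.053 in the second table, -0.075 over 21 libraries and -0.111 without resting NZB replicates 2 and 6 (-0.088 to 0.117). With the set term Psat1 was -0.033 between activated haplotypes (-0.045 to 0.15) and -0.027 for the difference of responses (-0.069 to 0.137). Over 21 libraries Mthfd2 was 0.043 for the difference of responses and Mthfd1l -0.003 between activated haplotypes (-0.005 to 0.142). Slc25a32 in NZB activation was 0.018 with the description block, 0.055 over 21 libraries and 0.127 without resting NZB replicates 2 and 6 (-0.296 to 0.124), and -0.325 to 0.031 in B6. Leaving out 1 library gave Mthfd1 -0.13 to 0.099 in B6 activation and -0.057 to 0.099 between activated haplotypes, and Shmt1 -0.03 to 0.274 for the difference of responses. The causes were not tested. Depth limits the low genes: Aldh1l2 had 2 counts in all, and SEs on activation were 0.38 and 0.42 for Slc25a32 against 0.21 and 0.23 for Shmt1.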
